A study of Mus musculus with 6 samples.

Results

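Ferritins, the pseudogene and retrogene copies of ferritin light chain, and the core genes of cellular iron handling were described here in whole mouse hearts at embryonic day 9.5. The 10 genes were chosen by name, with results of this comparison already known, from the 30323 gene rows of the deposited table, and all 10 were found. They were Ftl1, Ftl1-ps1, Ftl1-ps2, Ftl2-ps, Fth1, Tfrc, Slc40a1, Slc11a2, Ireb2 and Aco1. The study set 3 control libraries, whose genotype label is C57BL/6 ctrl, beside 3 libraries from hearts with a myocardial knockout of Cdc42 (MCKO), a small GTPase gene, whose genotype label is CDC-42 KO. No other allele, treatment or age difference is in the labels, and the Cre line behind the knockout is not given in the sources used here. The labels do not tie a library to 1 heart or litter, so a p-value here covers only how far these libraries scatter, which can be technical scatter. Genotype and any unlabelled batch that follows it cannot be told apart.

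Ferritin is a hollow protein shell that stores iron. It is built from heavy chains, encoded by Fth1, which oxidise iron, and light chains, encoded in the mouse by Ftl1, which help the mineral form. The iron regulatory proteins, encoded by Aco1 and Ireb2, bind hairpins called iron responsive elements when iron is scarce. Binding near the 5' end of a messenger RNA blocks its translation, as for both ferritin chains and the exporter gene Slc40a1, and binding in the 3' UTR of Tfrc, the transferrin receptor gene, stabilises the messenger. Ferritin is therefore set largely at translation, which RNA counts do not measure, while Tfrc is set in part by the amount of its RNA. In the embryo, red cells take up iron for haem through Tfrc.

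The elements that a strict search pattern found in the members are shown first, because hairpins of this kind are what the iron regulatory proteins bind. Each is 27 bases, written 5' to 3' on the strand of the gene, with the loop in capitals. They were found in transcripts of GENCODE release M21 on GRCm38 by a search on the sense strand for the loop CAGTGN, an unpaired C before an upper stem of 5 pairs, and at least 4 of 5 pairs in the lower stem.
Ftl1, 5' UTR, chr7:45459780-45459806, minus strand: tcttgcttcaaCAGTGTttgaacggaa
Ftl1-ps1, 5' UTR, chr13:74406429-74406455, plus strand: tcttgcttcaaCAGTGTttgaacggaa
Fth1, 5' UTR, chr19:9982733-9982759, plus strand: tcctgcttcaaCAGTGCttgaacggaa
Slc40a1, 5' UTR, chr1:45925466-45925492, minus strand: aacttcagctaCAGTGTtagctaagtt
Tfrc, 3' UTR, chr16:32631220-32631246, plus strand: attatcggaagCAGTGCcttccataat
Tfrc, 3' UTR, chr16:32631599-32631625, plus strand: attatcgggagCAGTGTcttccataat
Tfrc, 3' UTR, chr16:32631664-32631690, plus strand: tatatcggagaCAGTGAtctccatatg
Tfrc, 3' UTR, chr16:32631711-32631737, plus strand: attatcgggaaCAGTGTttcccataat
The element of Ftl1-ps1 is the same in all 27 bases as that of Ftl1. The pattern was found in 42 of the 29857 genes with a transcript (0.141%). A match is a description of the letters and not a tested site. The rows of Ftl1-ps2 and Ftl2-ps hold only a coding-length sequence, so this window was not part of them. The pattern was not found in the annotated transcripts of Slc11a2, Aco1 and Ireb2, which says only that these letters are not there. It was also not found in Epas1, Cdc14a, Cdc42bpa and Pfn2, which are listed below as transcripts with a described element. The pattern thus misses described elements, and a gene without a match may still hold one.

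The light chain copies differ from Ftl1 at few positions, which bears on every count given to them. Ftl1 (ENSMUSG00000050708) is a protein-coding gene on chromosome 7 at 45457944 to 45459884, on the minus strand, with 4 exons in the transcript used. Ftl1-ps1 (ENSMUSG00000062382), on chromosome 13 at 74399694 to 74407346, is annotated as protein-coding despite its name and carries a retrogene tag. Ftl1-ps2 (ENSMUSG00000096755), on chromosome 10 at 130592157 to 130592705, and Ftl2-ps (ENSMUSG00000082062), on chromosome 4 at 125504288 to 125504839, are processed pseudogenes, copies made by reverse transcription of a spliced messenger. Ftl2-ps lies in the bounds of Grik3, on its strand, and overlaps none of its exons. Annotated miRNA genes overlap all 4 light chain rows on the same strand, and transcripts on the opposite strand overlap exons of Ftl1 and Ftl1-ps1. These were not analysed here. Against the 552 coding bases of Ftl1, Ftl1-ps1 had 2 mismatches (99.6% identity), Ftl2-ps 7 (98.7%) and Ftl1-ps2 12 over 549 aligned bases (97.8%). All 3 copies shared G468A and G504A, where positions count from 1 at the first base of the Ftl1 start codon and the Ftl1 base stands first. These were the only differences of Ftl1-ps1 in the coding sequence. The last 60 bases up to position 504 show them, with differences from Ftl1 in capitals.
Ftl1, chr7:45458155-45458214, minus strand: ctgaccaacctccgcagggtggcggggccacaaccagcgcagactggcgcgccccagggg
Ftl1-ps1, chr13:74407048-74407107, plus strand: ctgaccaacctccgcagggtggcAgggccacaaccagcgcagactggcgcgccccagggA
Ftl2-ps, chr4:125504732-125504791, plus strand: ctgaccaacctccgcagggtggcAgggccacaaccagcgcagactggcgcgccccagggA
Ftl1-ps2, chr10:130592202-130592261, minus strand: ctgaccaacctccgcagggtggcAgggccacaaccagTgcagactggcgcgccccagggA
A read that falls between such positions matches several rows. Of the 31-base words in the annotated transcripts of Ftl1, 45.5% occurred in no other gene of the table. The share was 28.9% for Ftl1-ps1, 30.6% for Ftl1-ps2 and 8.24% for Ftl2-ps, and 94.3 to 100% for the other 6 members. Over 29826 genes the median was 98%, and 16.7% of genes lay under 50%. These shares pool all annotated transcripts of a gene, which were 6 for Ftl1. Of the 968 bases of the Ftl1 transcript used, 910 aligned to Ftl1-ps1 with 4 mismatches, so the share for that transcript alone is lower.

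Library totals ran from 19256840 to 32169289 estimated counts in controls and from 23883877 to 34246477 in MCKO, and CPM are counts scaled to a total of 1000000 per library. No library was a copy of another: the chi-square statistic per degree of freedom between replicates was 3.46 to 14.5, and between groups 84.6 to 134. Cdc42, the targeted gene, held 399, 377 and 424 CPM in the controls and 248, 241 and 238 CPM in MCKO, a log2 fold change of -0.66 (SE 0.047). The groups do not overlap, as the labels have it, although other cells of the whole heart also contribute Cdc42 reads. Heart muscle markers were high in both groups, with 7 genes summing to 20013 to 22858 CPM in controls and 25277 to 26634 CPM in MCKO.

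Of the 10 members, all of which passed the filter on low counts, 9 were called at an edgeR adjusted p under 0.05, 3 higher and 6 lower in MCKO. Among all tested genes, the calls made up 58.4%, with 29.3% called higher and 29.1% called lower. In CPM the groups stood apart for 8 of the 10 members and for 65.5% of all tested genes. Since the members were chosen with this comparison in view, nothing is read from these counts and no p is given for a member. The values below describe these libraries.

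Ftl1, the functional light chain gene, held 633, 645 and 539.7 CPM in controls 1, 2 and 3, and 875, 886 and 928 CPM in MCKO 1, 2 and 3. Every MCKO library lay above every control. The means were 606 ± 57.6 and 896 ± 27.9 CPM (SD, n = 3 each), a log2 fold change of 0.63 (SE 0.069).

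The retrogene Ftl1-ps1 went the other way and to nothing. It held 128, 140.4 and 119.6 CPM in the controls, from 3456, 2703 and 3848 counts, and 0 counts in each MCKO library. A count of 0 allows up to 0.0876, 0.117 and 0.126 CPM in MCKO 1, 2 and 3, for counting error only. Against a floor of 3 counts over the MCKO group, Ftl1-ps1 was at least 3567-fold lower there. Whether all 6 libraries were quantified against the same transcript set is not given in the sources used here, so this fold and those of the other copies describe the deposited counts.

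The processed pseudogenes followed the same pattern at lower levels. Ftl2-ps held 24.8, 28.4 and 24.5 CPM in the controls and 0.0584, 0.0778 and 0 CPM in MCKO. Its 2002 control counts against 4 gave a ratio of 535 per library depth, with a 95% counting interval of 209 to 1966. Neither group's values came near the other's. Ftl1-ps2 held 4.22, 5.87 and 5.35 CPM in the controls and 0.0584, 0 and 0.0419 CPM in MCKO. Its 399 counts against 3 gave a ratio of 142, with an interval of 48.3 to 693. Among further near-identical rows with predicted names, Gm12164 held 21, 17 and 42 counts in the controls and 0 in each MCKO library. Gm15590 held 1 to 2 counts in the controls and 1 to 6 in MCKO, near 0 in both groups.

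**Figure D1:**
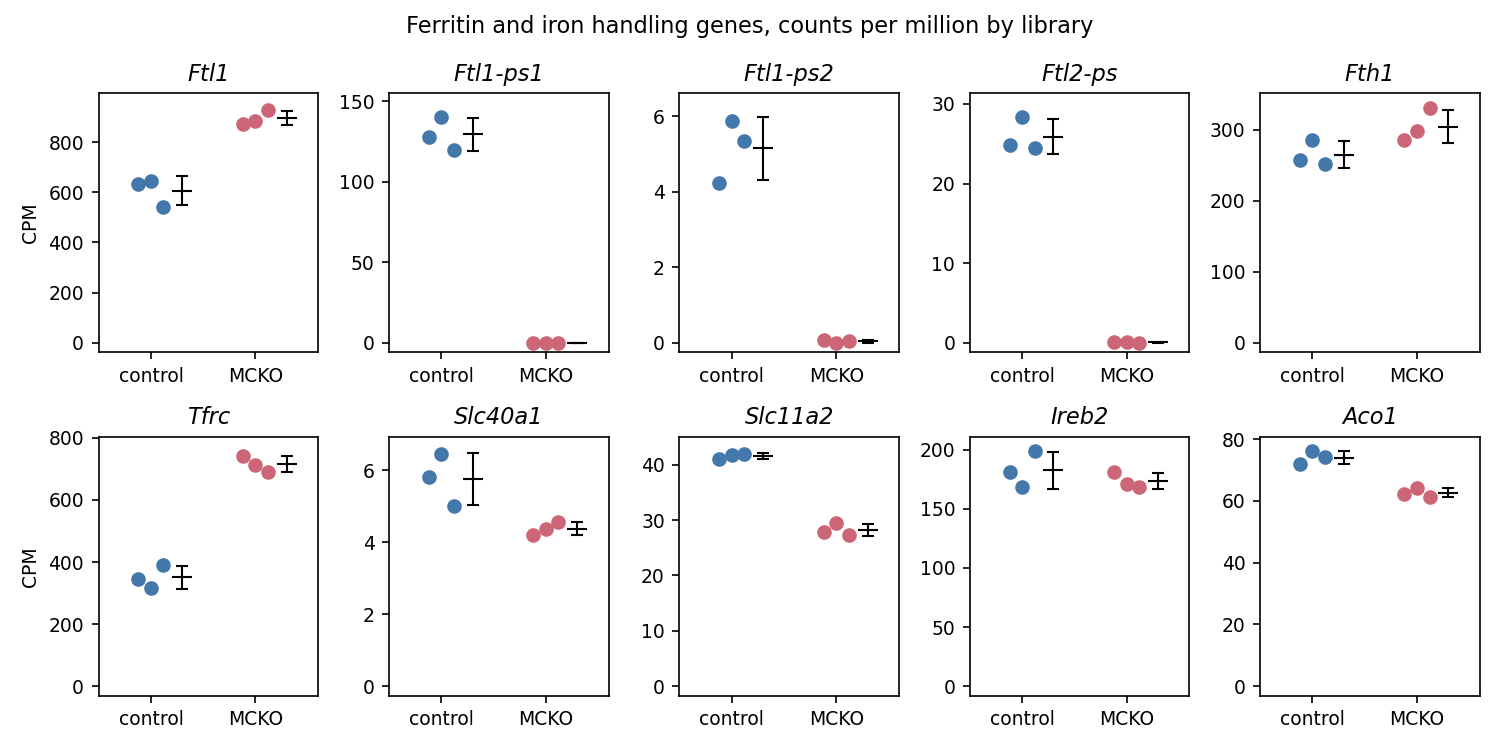
CPM (vertical axes, starting at 0, each panel on its own scale) of the 10 genes in 3 control and 3 MCKO libraries. Points are libraries and the bars give mean ± SD. The 3 light chain copies sit at or near 0 in MCKO, all MCKO points of Ftl1 and Tfrc lie above all their control points, and the groups overlap for Fth1 and Ireb2.

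Because estimated counts can move between near-identical rows, the light chain was also taken as the sum of Ftl1 and its 3 copies. The sum held 789.6, 819.9 and 689 CPM in the controls and 875, 886 and 928 CPM in MCKO. The groups still did not overlap, but the gap was smaller than for the Ftl1 row. The means were 766 ± 68.4 and 897 ± 27.9 CPM, and the log2 fold change was 0.29 (SE 0.066), a fold of 1.22, against 0.63 for the Ftl1 row alone. The copies together took 19.9, 21.3 and 21.7% of the sum in the controls, and 0.0133, 0.00878 and 0.00451% in MCKO. Ftl1-ps1 alone took 16.2, 17.1 and 17.4% in the controls. The share of the copies was thus nearly the same in the 3 controls, at 21 ± 0.944%. The copies summed to 160.4 ± 12.9 CPM in the controls and 0.0788 ± 0.0375 CPM in MCKO. How reads were divided among the copies was not tested.

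**Figure D2:**
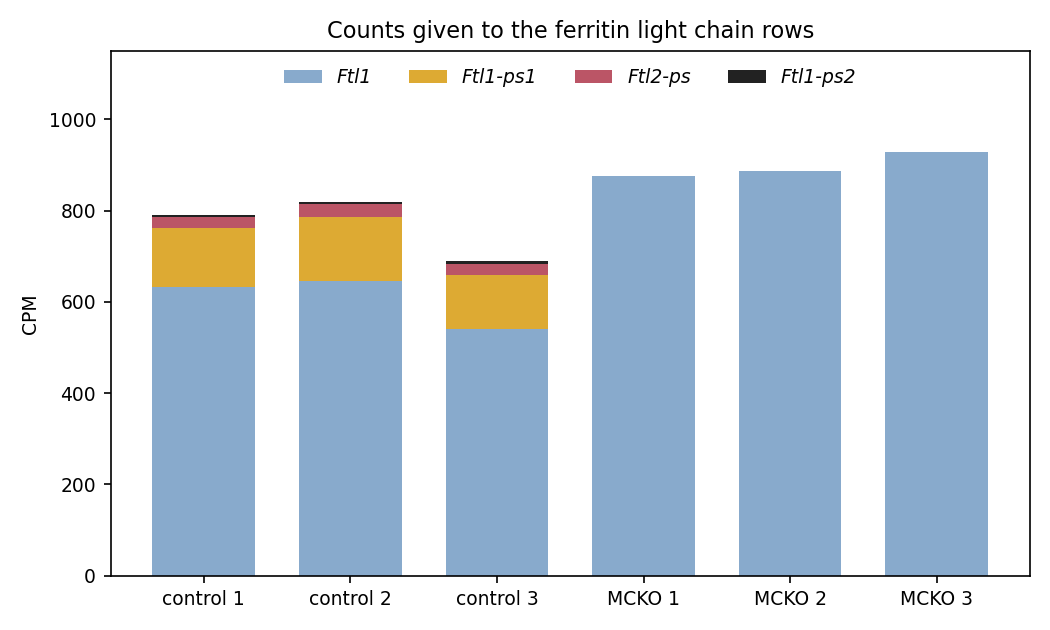
Stacked bars of the CPM (vertical axis, from 0) given to Ftl1 and its 3 copies in each of the 6 libraries. The copies form 19.9 to 21.7% of each control bar and are too small to see in MCKO, where the whole bar is Ftl1.

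The pattern of a row that is present in 1 group and near 0 in the other was rare in the table. In all, 13 rows held at least 10 CPM in every library of 1 group and under 1 CPM in every library of the other, out of 9823 rows that held 10 CPM or more throughout a group. Of the 13, 9 were lost in MCKO and 4 gained. Of the 9 lost rows, 8 had under 50% unique 31-base words, against 3.3% of the 9780 rows at 10 CPM or more with a value, and 5 were annotated as pseudogenes. They included Ftl1-ps1 and Ftl2-ps. The others with a standing name were Tpm3-rs7, a tropomyosin retrogene, at 152 to 158 CPM in controls and 0.194 to 0.526 in MCKO, and Pcna-ps2, a copy of the replication clamp gene Pcna, at 33 to 41.6 and 0.0876 to 0.126. The lost row with fully unique sequence was Afp, the alpha-fetoprotein gene, at 10.6 to 12.4 CPM in controls and 0 to 0.175 in MCKO. None of the 4 gained rows had under 50% unique words. They were Chac1, which degrades glutathione, Kcne3, a potassium channel subunit, Gad1, which makes GABA, and Lgals3, a galectin. Chac1 held 0.435 to 0.556 CPM in the controls and 23.9 to 26.4 CPM in MCKO.

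Fth1 (ENSMUSG00000024661, chromosome 19 at 9980598 to 9985098, plus strand), the heavy chain gene, has mostly unique sequence (96.8% of 31-base words). It held 258, 286 and 251 CPM in the controls and 285, 298 and 330.1 CPM in MCKO. The groups touch, since control 2 lay just above MCKO 1. The means were 265 ± 18.3 and 304 ± 23.2 CPM, a log2 fold change of 0.26 (SE 0.069), close in size to the 0.29 of the summed light chain. Per base of transcript (968 for Ftl1, 929 for Fth1), the summed light chain held 2.93, 2.76 and 2.64 times the counts of Fth1 in the controls and 2.94, 2.86 and 2.70 times in MCKO. These ratios overlap, with means of 2.78 ± 0.15 and 2.83 ± 0.125. With the Ftl1 row alone they did not overlap, at 2.2 ± 0.145 in controls and 2.83 ± 0.125 in MCKO. Whether the light to heavy ratio differs between the groups therefore turned on whether the copies were counted with Ftl1. The other principal transcript of Fth1, of 1494 bases, is the one picked by the rule that gave 968 for Ftl1. With it the summed ratios were 4.46 ± 0.241 and 4.56 ± 0.201 and overlapped again. The choice of transcript was made after the data were seen, and the level of the ratio depends on it.

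**Figure D3:**
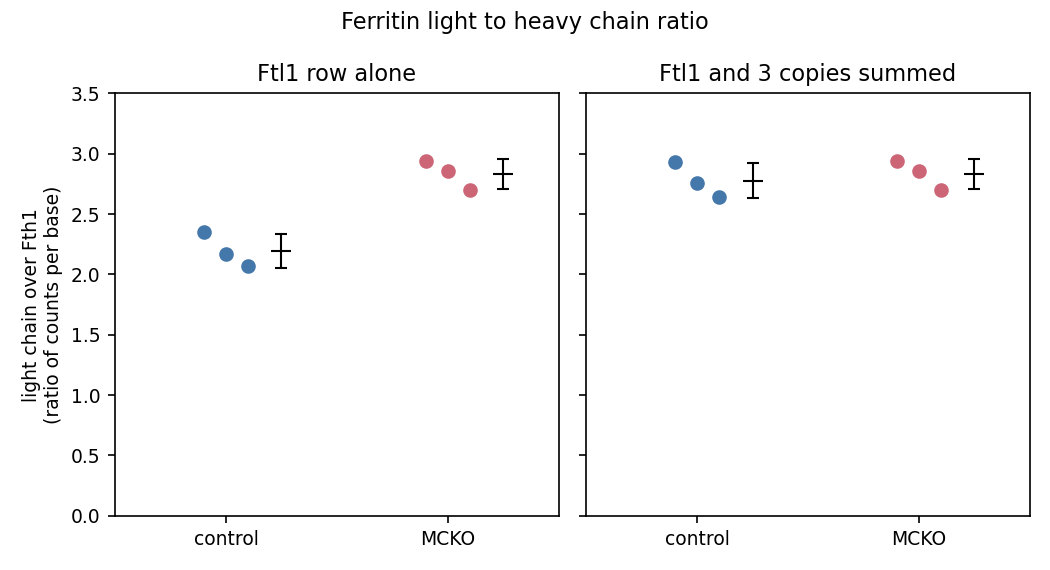
Ratio of ferritin light chain to Fth1 in counts per base of transcript (vertical axis, from 0), with the Ftl1 row alone on the left and Ftl1 plus its 3 copies on the right. Points are libraries and bars are mean ± SD. The groups are apart on the left (2.2 against 2.83) and overlap on the right (2.78 against 2.83).

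Tfrc (ENSMUSG00000022797, chromosome 16 at 32608920 to 32632794, plus strand), which imports transferrin-bound iron, had the largest rise among the members. It held 344, 317 and 391 CPM in the controls and 743, 714 and 691 CPM in MCKO. The groups stand far apart, at 351 ± 37.5 and 716 ± 26 CPM, a log2 fold change of 1.09 (SE 0.069). All of its 31-base words were unique. Markers of primitive red cells, which are rich in Tfrc, moved by a similar amount: all 9 were called higher, with a median log2 fold change of 1.07, and they summed to 3081 to 3375 CPM in controls and 6455 to 6866 CPM in MCKO. None of these markers was at 0 in a group. Single markers spread around that median, from 0.66 (SE 0.16) for Klf1 to 1.46 (SE 0.19) for the globin Hba-a1. The embryonic globin Hbb-y was at 1.07 (SE 0.047) and the erythropoietin receptor Epor at 1.11 (SE 0.1). The part of red cells in the Tfrc values was not tested. In whole hearts, more cells of a type and more RNA per cell cannot be told apart.

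Slc11a2 (ENSMUSG00000023030, chromosome 15 at 100387898 to 100425072, minus strand), which encodes the carrier that moves iron out of the endosome after Tfrc has brought it in, went the other way. It held 41, 41.8 and 42 CPM in the controls and 27.8, 29.4 and 27.4 CPM in MCKO. The libraries of each group lay close together and the groups were apart, with a log2 fold change of -0.50 (SE 0.051). Its exons overlap a predicted gene on the opposite strand, which held at most 3 counts in a library.

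Slc40a1 (ENSMUSG00000025993, chromosome 1 at 45908068 to 45926523, minus strand), which encodes ferroportin, the iron exporter, had few reads, at 109 to 161 counts a library. It held 5.82, 6.44 and 5 CPM in the controls and 4.2, 4.36 and 4.56 CPM in MCKO. The groups did not overlap, but control 3 and MCKO 3 lay close to each other. The log2 fold change was -0.33 (SE 0.13), and its call was lost in 8 of 12 alternatives. These were no filter, DESeq2, a block on replicate number, and leaving out control 1, control 2 or any of the MCKO libraries. Macrophages are known for high ferroportin. Their 6 markers summed to 3.27 to 3.79 CPM in controls and 1.37 to 2.18 CPM in MCKO. Only 2 could be tested: Csf1r was called lower (2.33 and 0.956 CPM), and Cx3cr1 was not called, with overlapping groups. Adgre1 was at 0 in all MCKO libraries, but held only 0.0504 CPM in controls and was too low to test. The part of macrophages in the Slc40a1 values was not tested.

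The genes of both iron regulatory proteins differed less between the groups. Ireb2 (ENSMUSG00000032293, chromosome 9 at 54863789 to 54912530, plus strand), which encodes IRP2, held 181, 168 and 199 CPM in the controls and 181, 171 and 168 CPM in MCKO. The groups overlap and the log2 fold change was -0.01 (SE 0.06). It was the member that was not called. Aco1 (ENSMUSG00000028405, chromosome 4 at 40143081 to 40198338, plus strand), which encodes IRP1, the protein that serves as aconitase when it holds an iron-sulphur cluster, held 71.9, 76.1 and 74.1 CPM in the controls and 62.4, 64.2 and 61.3 CPM in MCKO. All MCKO libraries lay below all controls, by a log2 fold change of -0.18 (SE 0.045).

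The wider iron pathway was taken from 6 lists of 64 other genes, of which 55 could be tested. The lists were chosen with earlier results of these data known, so a p-value given below for a list gene is no independent test. By edgeR with Benjamini-Hochberg adjustment over all 14697 tested genes, 26 were lower in MCKO (29.1% of all tested genes were) and 10 were higher (29.3%), while 19 were not called. The median log2 fold change was -0.13, against 0.00 over all tested genes, and the groups stood apart for 36 of the 55. That share is at the background, since 65.5% of all tested genes had groups that stood apart. The counts given below for single lists stand beside these same shares, and nothing is read from them about a list.

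Among genes of uptake and transport, 3 of 7 tested fell and none rose. Cybrd1, a ferric reductase, fell from 6.6 ± 0.108 to 2.85 ± 0.292 CPM (log2 fold change -1.14, SE 0.12, edgeR adjusted p = 3.75e-05), lower in 3 of 3 MCKO libraries. Trf, which encodes the ligand of Tfrc and was picked out after its value was seen, fell from 7.16 ± 1.58 to 4.02 ± 0.472 CPM (log2 fold change -0.78, SE 0.17, edgeR adjusted p = 0.00315). Transferrin is a product of liver and visceral endoderm. Markers of those cells fell too, but by more than Trf: 5 of 5 tested were lower, with a median log2 fold change of -4.23. They summed to 14.9 to 16.8 CPM in controls and 0.506 to 0.879 CPM in MCKO, and Alb was at 0 in every MCKO library. Their part in the Trf values was not tested.

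Of the genes of export and its hormone control, 2 of 4 tested fell and 1 rose. Hjv, the hemojuvelin gene, a co-receptor for bone morphogenetic proteins, fell from 13.6 ± 0.494 to 7.18 ± 0.463 CPM (log2 fold change -0.85, SE 0.085, edgeR adjusted p = 2.81e-05). Bmp6, the ligand that drives hepcidin in the liver, rose from 7.8 ± 0.69 to 13.9 ± 0.511 CPM (log2 fold change 0.90, SE 0.091, edgeR adjusted p = 2.94e-05). In both genes the groups did not overlap. The hepcidin gene Hamp was too low to test.

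Of 4 tested genes of ferritin loading, turnover and iron sensing, 1 was lower and 3 were not called. That does not show that the 3 were alike in both groups. Pcbp2, an iron chaperone, fell from 500.1 ± 18.7 to 430.3 ± 8.23 CPM (log2 fold change -0.16, SE 0.04, edgeR adjusted p = 0.00795). Ncoa4, the receptor that takes ferritin to the lysosome, held 141 ± 7.37 and 145 ± 5.09 CPM (log2 fold change 0.10, SE 0.048, edgeR adjusted p = 0.109). Without control 3, Ncoa4 was called, at 0.13. Ftmt, the mitochondrial ferritin gene, was at 0 in all 6 libraries.

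Of 26 mitochondrial iron and iron-sulphur cluster genes, 13 fell, 5 rose and 8 were not called, with a median log2 fold change of -0.20. Hscb, a co-chaperone of cluster transfer, rose from 6.05 ± 0.266 to 12.1 ± 0.131 CPM (log2 fold change 1.06, SE 0.084, edgeR adjusted p = 6.31e-06). Slc25a37, the mitoferrin of red cells, also rose, from 112 ± 1.52 to 166 ± 6.13 CPM (log2 fold change 0.63, SE 0.042, edgeR adjusted p = 2.09e-06). Ciapin1, an electron carrier of the cytosolic cluster pathway, fell from 119 ± 3.79 to 59.4 ± 0.652 CPM (log2 fold change -0.94, SE 0.045, edgeR adjusted p = 2.5e-07). The last 2 were picked out after their values were seen.

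All 8 tested genes of haem breakdown and transport were called, 3 higher and 5 lower, where 58.4% of all tested genes were called. Hmox1, the inducible haem oxygenase, which frees iron from haem, rose from 21.6 ± 0.889 to 61.6 ± 2.55 CPM (log2 fold change 1.58, SE 0.057, edgeR adjusted p = 4.41e-08), and was higher in 3 of 3 MCKO libraries. Among 6 other transcripts with a described iron responsive element, 1 rose, 2 fell and 3 were not called. The one that rose was Alas2, which starts haem synthesis in erythroid cells, from 30.1 ± 1.07 to 60.5 ± 0.516 CPM (log2 fold change 1.07, SE 0.05, edgeR adjusted p = 2.11e-07). The red cell markers, with log2 fold changes of 0.66 to 1.46 and a median of 1.07, had a median similar to Alas2, as they did beside Tfrc. Slc25a37 rose by less than that median, at 0.63. Of the 37 genes outside the members that held the element pattern, 30 were tested, of which 13 were called higher and 9 lower, where 29.3% of all tested genes were called higher and 29.1% lower. Nothing particular to these genes is read from the counts.

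**Figure D4:**
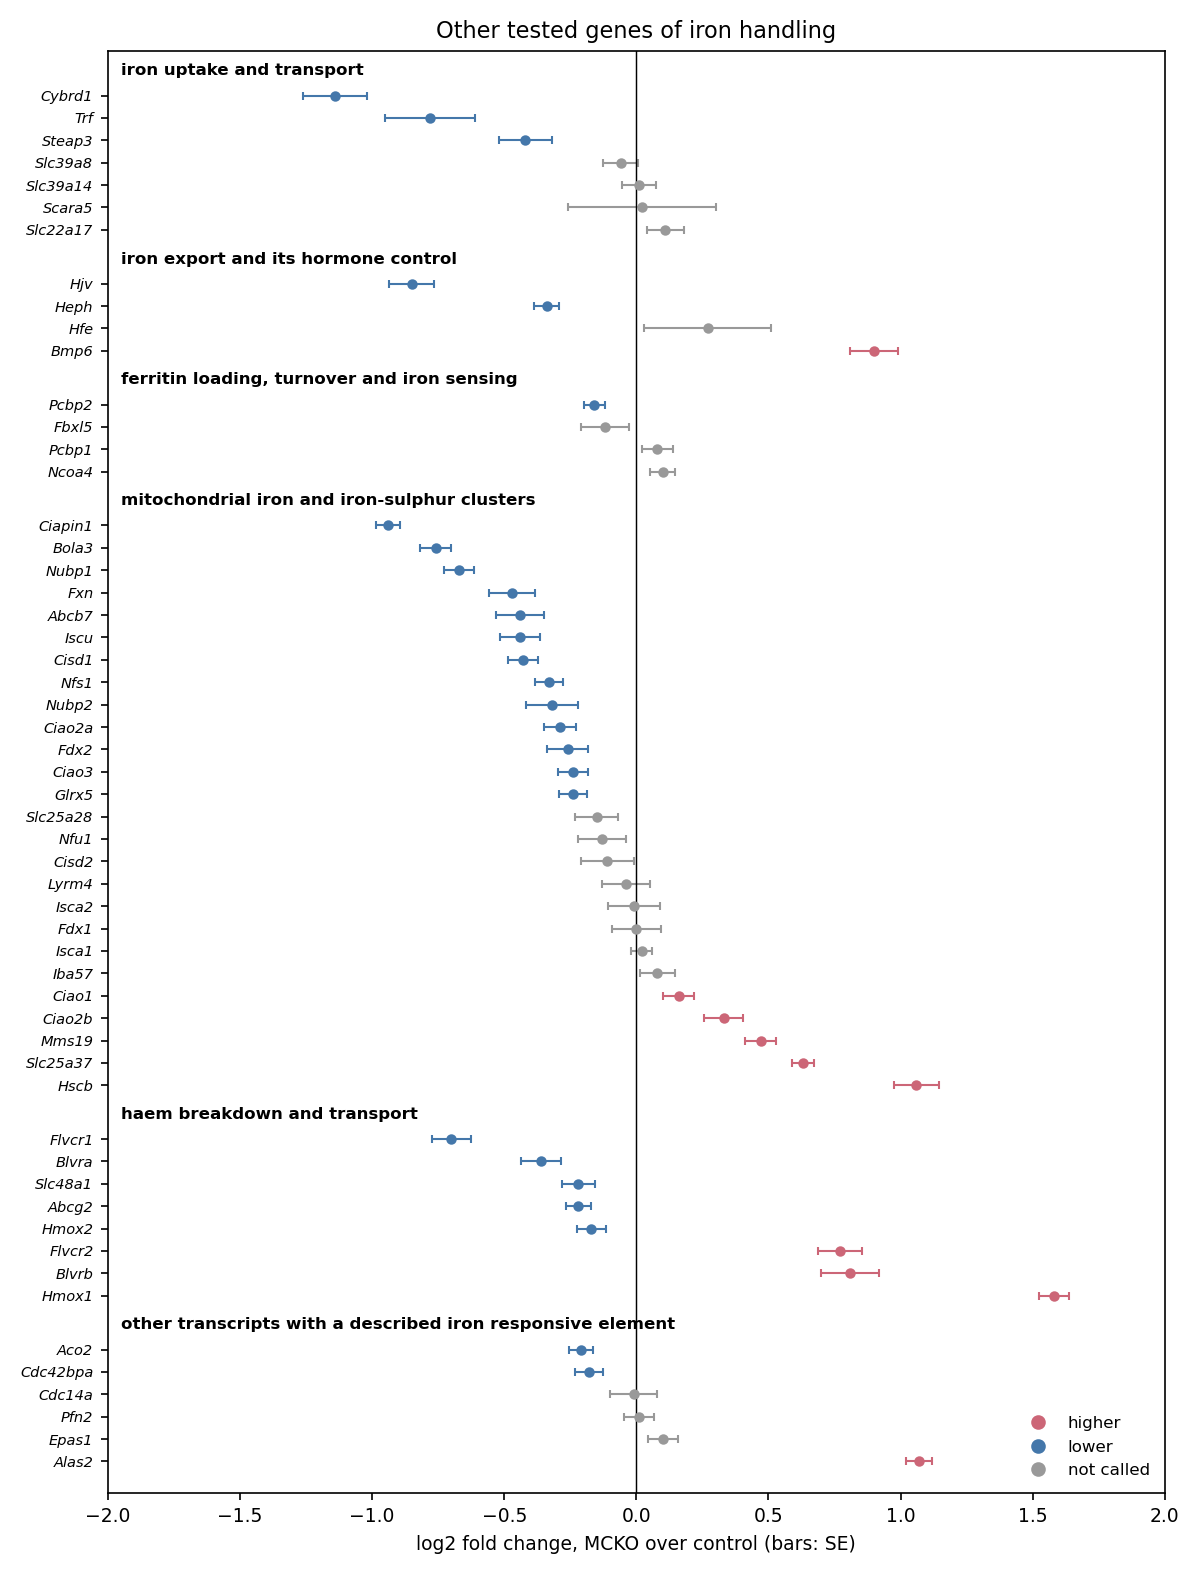
Log2 fold change, MCKO over control (horizontal axis), with SE bars, for the 55 tested genes of the 6 iron lists, ordered within each list. Red points were called higher (10), blue lower (26) and grey not called (19). Hmox1, at 1.58, lies farthest to the right and Cybrd1, at -1.14, farthest to the left.

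The genes with the most similar profiles over the 6 libraries were named by the root mean square distance between log2 CPM values, each centred on its own mean. For Tfrc these were Car2, Cadps, Rnf128, Nfe2 and Nabp1, at distances of 0.0352 to 0.0405. For the light chain sum they were Ldb1, Plod3, Sympk, Safb2 and Shb (0.0203 to 0.0291), and for Fth1 they were Ank1, Tmem150a, Selenoo, Mzt2 and Tor4a (0.0218 to 0.0307). The 6 libraries fall into the same 2 groups for every gene, so genes with a like difference between the groups come out close.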

How the data were processed

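The authors deposited whole-number estimated counts for each Ensembl gene. The submitters' processing notes name kallisto and mm10 without version or role. The transcript set, and how reads were divided between copies, is not given in the sources used here. Per the labels' protocols, RNA came from an Aurum kit and libraries from a stranded TruSeq mRNA kit. The knockout columns say CKO where the titles say MCKO. The test was edgeR 4.0.16 (R 4.3.3), with filterByExpr at its defaults, TMM and a robust quasi-likelihood fit on group, 2-sided, adjusted over 14697 tested genes, with a call at adjusted p under 0.05. The fit was tested on simulated data. CPM use library totals, and 29857 IDs matched a symbol. For sums, rows were added and the whole table refitted. Loci and 31-base words came from GENCODE M21 on GRCm38, copies from blastn 2.17.0 (95% identity over 80% of the length), alignments from MAFFT 7.526. Members and lists were chosen with earlier results of these data known. Beside members and Cdc42, the text names list genes called at 1 or more on the log2 scale, otherwise the 2 with the smallest p, 5 profile neighbours, and up to 5 switching rows a direction. Intervals cover counting error only.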

Additional observations from a re-analysis of the deposited data

How the results depend on the processing

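The 12 alternatives to the fit were DESeq2's size factors, library totals only, no filter, at least 50 counts in 3 libraries, the DESeq2 1.42.0 test, a block on replicate number, and leaving out each library. The light chain sum stayed between 0.22 and 0.34, and the count of other iron genes called between 31 and 38 around 36, with both ends reached by leaving out a library. No pairing by replicate number was seen: same-numbered deviations correlated at -0.00472, 0.0216 and -0.13, and 1 of 6 libraries correlated best with its own number. With 3 libraries a group this cannot exclude a pairing, which the labels do not give. With the replicate block the light chain sum was 0.29 and 35 iron genes were called. Rows that switch numbered 13, 7 at 20 CPM instead of 10, 19 at 5 and 0.5 CPM, and 13 to 16 without 1 library. Of the members' calls only that of Slc40a1 was lost. Ireb2, not called, ranged from -0.07 to 0.05. For the 12 other named genes, 143 of 144 values kept direction and side of the threshold, Ncoa4 without control 3 being the exception. Using the Ftl1 row alone, an alternative added after seeing the data, moved the MCKO over control ratio of light to heavy chain from 1.02 to 1.29. Scaling by library totals shifted the median of all genes by -0.06. Depth limits Ftl1-ps2, with 3 counts in MCKO, and genes too low to test, such as Hamp.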
